A study of Mus musculus with 6 samples.

Results

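Interferon response and nucleic acid sensing genes were examined in mouse embryonic stem (ES) cells that had lost a pair of heterochromatin proteins. The set is a given list of 34 gene symbols, out of 24467 genes in the count table, and each was found by its Entrez gene ID, Rigi through its older symbol Ddx58. The study deleted Cbx5 (HP1 alpha) and Cbx1 (HP1 beta) together and measured RNA in 6 libraries, 2 for each of 3 clones. The control is 1 clone titled as F/F, with the genotype WT in the labels. The double knockout (DKO) is represented by 2 clones, called clone 1 and clone 2 here. All cells were untreated and were grown with leukaemia inhibitory factor, knockout serum replacement, 3 µM CHIR99021 (an inhibitor of GSK3) and 0.8 µM PD184352 (an inhibitor of MEK). The labels name no driver of the deletion, no batch and no separate cultures. The p-values therefore cover only the spread among these 6 libraries, some of which may be technical, and since the control is 1 clone, effects of genotype and of clone cannot be told apart.

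HP1 proteins bind histone H3 methylated at lysine 9 and are part of the heterochromatin that covers repeats and endogenous retroviruses. In many cell types, RNA or DNA from such elements can be read as if it were viral: RIG-I (Rigi) and MDA5 (Ifih1) bind double-stranded RNA and signal through MAVS, cGAS binds cytosolic DNA and signals through STING, and both routes act through IRF3 and IRF7 to induce type I interferon. Interferon then acts through a complex that holds STAT2 and IRF9 on genes that carry an interferon-stimulated response element (ISRE) in their promoters. Mouse ES cells are known for a weak interferon response. The question was whether the DKO cells showed this response, which is known as viral mimicry.

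The libraries held 24628872 to 34641560 counted reads. Cbx5 and Cbx1, which check the labels, lay at 809 to 813 and 223 to 227 CPM (read counts scaled to the size of the library) in the control, and at 191 to 205 and 43.9 to 49.3 CPM in the DKO libraries. The control replicates differed from each other more than the replicates of either clone did (chi-square per gene 64.5, against 16.4 and 17.4). The 10 ES cell markers were detected, with a summed level of 4840 to 5058 CPM in the control and 4827 to 5149 CPM in the DKO libraries. In DKO against control, edgeR, DESeq2 and limma-voom each called 1 of these markers higher and 1 lower (Nanog and Tdgf1). The 10 leukocyte markers summed to 17.4 to 19.4 and 19.1 to 22.2 CPM, with Ptprc at 6 reads in all libraries together. In clone 1 against control, edgeR called 1 leukocyte marker higher and 1 lower (Cd68 and Cd3e), limma-voom called Cd68 and DESeq2 called none. The 10 fibroblast markers summed to 11.2 to 13.4 CPM in the control and to 6.34 to 8.75 CPM in the DKO libraries.

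Most of the 34 genes were low or silent in every clone. Per length, as RPKM (CPM divided by the gene's width in kilobases, mean of the 6 libraries), the highest were Ifitm3 (115 RPKM), Ifitm2 (54.8), Trim25 (24.2) and Rigi (23.5). The membrane proteins of the Ifitm family block the entry of viruses, and Trim25 is a ubiquitin ligase that acts on RIG-I. A middle group lay between 1.46 and 18.5 RPKM: B2m, Ifitm1, Adar, Bst2, Irf3, Mavs, Eif2ak2, Irf1, Irf9, Stat2 and Oas1a. Cgas (0.923 RPKM), Tap1 (0.772) and Sting1 (0.757) were lower, and Zbp1, Dhx58, Irf7, Psmb9 and Ifit2 were under 0.25 RPKM.

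The classical interferon-induced genes were at the bottom. No read in any of the 6 libraries fell on Isg15 (a ubiquitin-like modifier), or on Ifit1 and Ifit3 (binding proteins of viral RNA). The same held for Ifih1 (the sensor MDA5) and Psmb8 (an immunoproteasome subunit). If reads were counted independently, this allows at most 0.0173 CPM over the pooled reads (3 counts, covering counting error only). How reads were counted is not given in the sources used here, and the bound is higher if they were not independent. Of the stretches of 50 bases in Ifit3 transcripts, 51.2% also occur in Ifit3b, so its 0 and this bound depend on how the authors counted reads that match several genes. The 5 genes are 14.7% of the list, and 14.3% of the protein-coding genes in the table were at 0 in the same way. Mx2, Mx1, Usp18 and Oasl2 had 3, 6, 6 and 11 reads in all libraries together. The Mx proteins are antiviral GTPases, Usp18 removes Isg15 and restrains the receptor, and Oasl2 is a relative of the oligoadenylate synthetases. Rsad2 (viperin, an antiviral enzyme) had 11 and 6 reads in the control, 6 and 4 in clone 1, and 14 and 2 in clone 2. Tlr3, the endosomal receptor for double-stranded RNA, had 10 and 6 reads in the control, 4 and 6 in clone 1, and 2 and 0 in clone 2. For both genes the control and DKO libraries overlapped. These 6 genes were under the filter on low counts and were not tested.

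**Figure D1:**
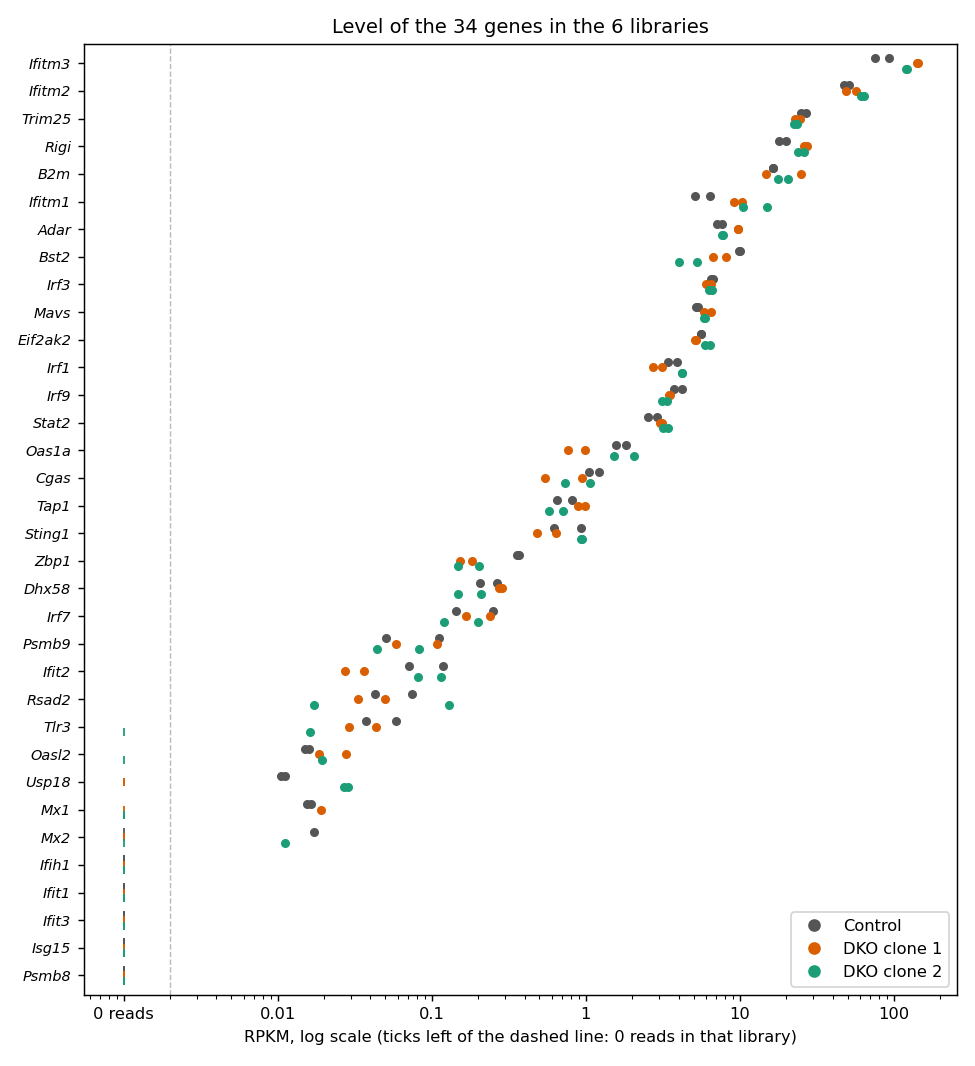
Level of each of the 34 genes in the 6 libraries, in RPKM on a log axis, with 1 point per library coloured by clone and ticks at the left for libraries with 0 reads. Ifitm3 is the highest at a mean of 115 RPKM, and 5 genes have no read in any library.

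The promoters show which of these genes carry the letters of an ISRE. The motif searched was GAAA, any 2 bases and GAAA again (TTTC, any 2 bases and TTTC where it lies on the other strand), in the 250 bases before each annotated start (RefSeq, GRCm38.p6), and promoters were in the table for 28 of the 34 genes. It was present in 9 of these 28 genes and in 3.46% of 27025 genes. The 6 below are those of the 9 whose promoter starts at the annotated end of the gene, and they are shown because they span the list from a gene without reads to a gene at 18.5 RPKM. Capitals mark the motif and overlapping copies of it. The lines run 5′ to 3′ on the strand of the gene.
Isg15 (chr4:156200860-156200911, minus strand): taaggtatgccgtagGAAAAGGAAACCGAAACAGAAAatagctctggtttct
Ifit1 (chr19:34640770-34640828, plus strand): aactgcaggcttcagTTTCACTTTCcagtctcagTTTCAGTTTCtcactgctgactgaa
Rsad2 (chr12:26456548-26456587, minus strand): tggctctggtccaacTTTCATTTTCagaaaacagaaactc
Bst2 (chr8:71537572-71537617, minus strand): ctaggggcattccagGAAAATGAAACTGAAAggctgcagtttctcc
B2m (chr2:122147533-122147572, plus strand): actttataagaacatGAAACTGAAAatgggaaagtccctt
Stat2 (chr10:128270261-128270300, plus strand): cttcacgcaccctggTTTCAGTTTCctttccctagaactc
Isg15 carries 3 overlapping copies, Ifit1 and Bst2 carry 2 each, and the others carry 1. The remaining genes with the motif were Ifit3, Oas1a and Ifitm2. Of the 9 genes, 3 had no read in any library (Isg15, Ifit1 and Ifit3), Rsad2 was too low to test, and the 5 that could be tested were Oas1a, Bst2, Ifitm2, Stat2 and B2m. The 250 bases before Rigi, Ifitm1 and Ifitm3 do not hold these letters, and the promoters of Mx1, Mx2, Zbp1, Usp18, Dhx58 and Sting1 were not used. The gamma-interferon motif TTCNNNGAA, which reads the same on both strands, was present in 6 of the 28 genes (Ifit2, Oas1a, Bst2, Eif2ak2, Irf1 and Psmb8) and in 8.13% of all genes. A match is a description of the letters and not evidence of binding.

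In DKO against control, Ifitm1, Ifitm3 and Rigi rose and none of the 34 genes fell. Of the 34, 23 had enough reads for the edgeR quasi-likelihood test with Benjamini-Hochberg adjustment over all 14771 tested genes and a threshold of 0.05. The 3 genes that rose are 13% of the 23, where 5.06% of all tested genes rose, and the 0 that fell compare with 3.62% of all (8.69% in either direction). At an unadjusted p under 0.05, 3 of the 23 were higher and 4 were lower. DESeq2 and limma-voom each called 3 higher and 1 lower, the lower gene being Bst2. Without control replicate 1 none of the 34 was called higher, and without control replicate 2 the number was 2. The log2 change was positive in 10 and negative in 13 of the 23 genes, with a median of -0.04, and the median of all tested genes was 0.0004. The DKO and control libraries did not overlap for 5 genes with DKO higher (Ifitm1, Ifitm3, Rigi, Mavs and Stat2) and for 4 with DKO lower (Bst2, Zbp1, Trim25 and Irf9), where 16.9% of all tested genes fell on each side. In bulk RNA, fewer cells that express a gene and less RNA per cell cannot be told apart.

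**Figure D2:**
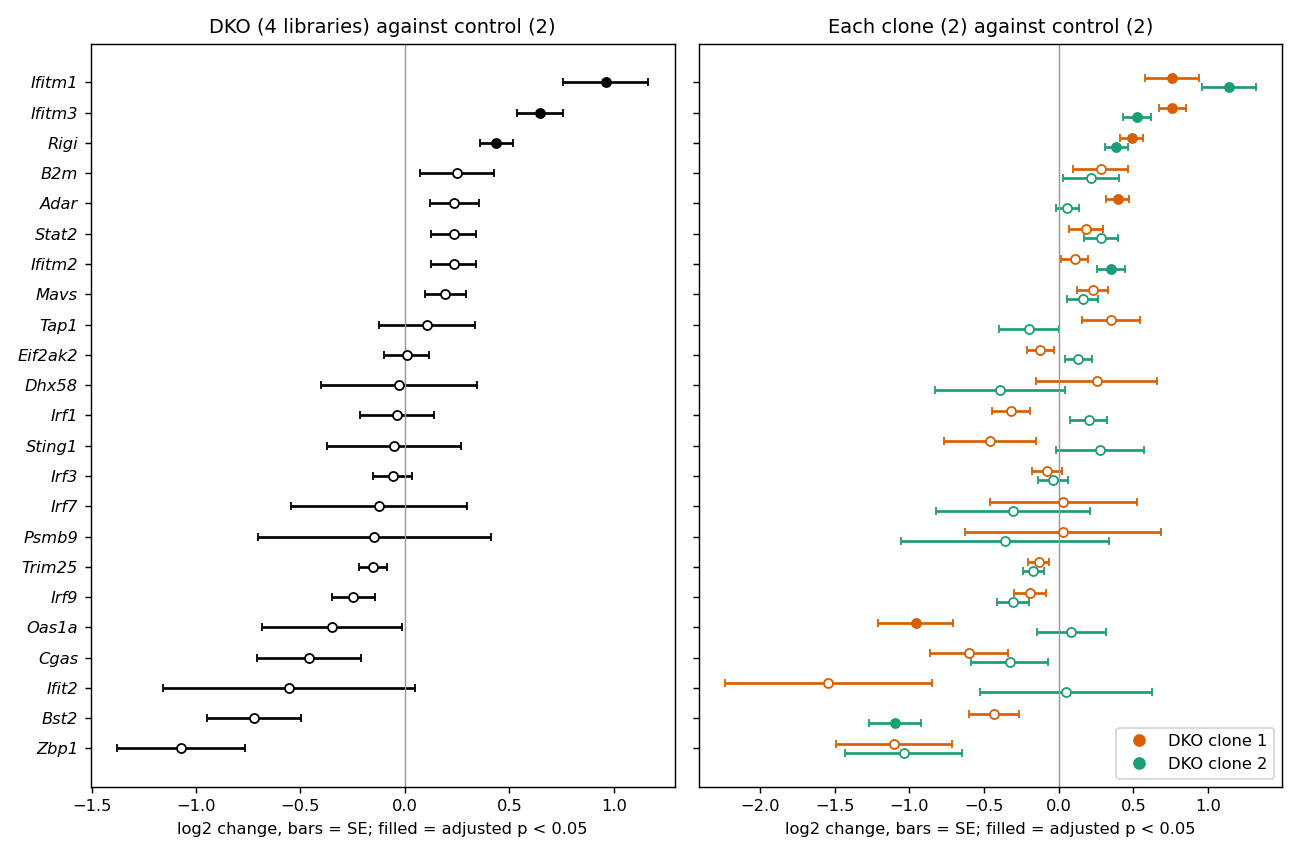
Log2 change of the 23 tested genes with its standard error (SE, bars), for all DKO libraries against control on the left and for each clone against the same control on the right; filled points passed the adjusted p threshold. Ifitm1, Ifitm3 and Rigi are filled in all 3 contrasts, and the log2 changes on the left run from -1.07 to 0.96.

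Among the sensors, Rigi rose, Cgas and Dhx58 did not pass the test, and Ifih1 and Tlr3 were too low to test. Rigi codes for the RNA helicase RIG-I (Entrez 230073, GRCm38 chr4:40203777-40239825). It lay at 126.7 and 141.4 CPM in the control, 183.1 and 192.9 CPM in clone 1, and 183.3 and 167.2 CPM in clone 2. All 4 DKO libraries were above both control libraries. The means were 134 ± 10.4 CPM (SD, n = 2) and 182 ± 10.7 CPM (SD, n = 4), a log2 change of 0.44 (SE 0.0774, adjusted p = 0.00646, edgeR) or 1.35-fold. The call ended without control replicate 1 (log2 change 0.36) and with the counts summed per clone (0.44). The summed fit has 1 residual degree of freedom, so the loss of a call there cannot decide about a single gene.

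Cgas, the sensor of cytosolic DNA, lay at 5.01 and 4.31 CPM in the control, 2.23 and 3.92 CPM in clone 1, and 3.01 and 4.39 CPM in clone 2. The groups overlapped, and the log2 change was -0.46 (SE 0.248, adjusted p = 0.299, edgeR). Dhx58, which codes for LGP2, a regulator of the RNA helicases, held 0.487 to 0.933 CPM in the 6 libraries with a log2 change of -0.03 (SE 0.375). Ifih1 and Tlr3, the other RNA sensors of the list, are the silent and near-silent genes described above.

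The 2 adaptors downstream of the sensors did not pass with any of the 3 tools, and 0 had an unadjusted p under 0.05 in edgeR. Mavs, the mitochondrial adaptor of RIG-I and MDA5, lay at 17.4 and 17.8 CPM in the control, 19.5 and 21.8 CPM in clone 1, and 19.8 and 19.6 CPM in clone 2. Every DKO library was above the control, by a log2 change of 0.19 (SE 0.0981) with an adjusted p of 0.267 (edgeR). Sting1, the adaptor of cGAS, lay at 1.43 and 2.14 CPM in the control, 1.47 and 1.11 CPM in clone 1, and 2.17 and 2.14 CPM in clone 2. Its groups overlapped, and the log2 change was -0.05 (SE 0.321).

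The Ifitm genes lie near each other on chromosome 7, and Ifitm1 and Ifitm3 had the largest rises of the list. Ifitm1 (Entrez 68713, GRCm38 chr7:140967429-140969827) lay at 5.59 and 6.97 CPM in the control, 11.24 and 10.02 CPM in clone 1, and 16.30 and 11.40 CPM in clone 2. All DKO libraries were above the control. The means were 6.28 ± 0.976 CPM (SD, n = 2) and 12.2 ± 2.78 CPM (SD, n = 4), a log2 change of 0.96 (SE 0.203, adjusted p = 0.0157, edgeR) or 1.95-fold. The call ended without control replicate 1 or control replicate 2 (log2 change 0.81 or 1.13). It also ended in the summed fit (0.96), which cannot decide about a single gene.

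Ifitm3 (Entrez 66141, chr7:141009590-141010744) lay at 50.8 and 62.8 CPM in the control, 95.8 and 96.7 CPM in clone 1, and 82.8 and 80.5 CPM in clone 2. The libraries of each DKO clone lay close together and above the control. The means were 56.8 ± 8.50 CPM (SD, n = 2) and 89.0 ± 8.48 CPM (SD, n = 4), a log2 change of 0.65 (SE 0.111, adjusted p = 0.00539, edgeR) or 1.57-fold. The call of Ifitm3 ended without control replicate 1 (log2 change 0.50) and in the summed fit (0.65), which cannot decide about a single gene. Ifitm2 (Entrez 80876, chr7:140954837-140959686), between 41.7 and 44.9 CPM in the control, 43.0 and 50.2 CPM in clone 1, and 54.0 and 56.3 CPM in clone 2, overlapped between control and clone 1 and did not pass (log2 change 0.23, SE 0.109, adjusted p = 0.232). Of the stretches of 50 bases in the transcripts of Ifitm2, 48.5% also occur in transcripts of other genes, against 10.02% for Ifitm3 and 5.02% for Ifitm1, and how the authors counted reads that match several genes is not given in the sources used here.

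**Figure D3:**
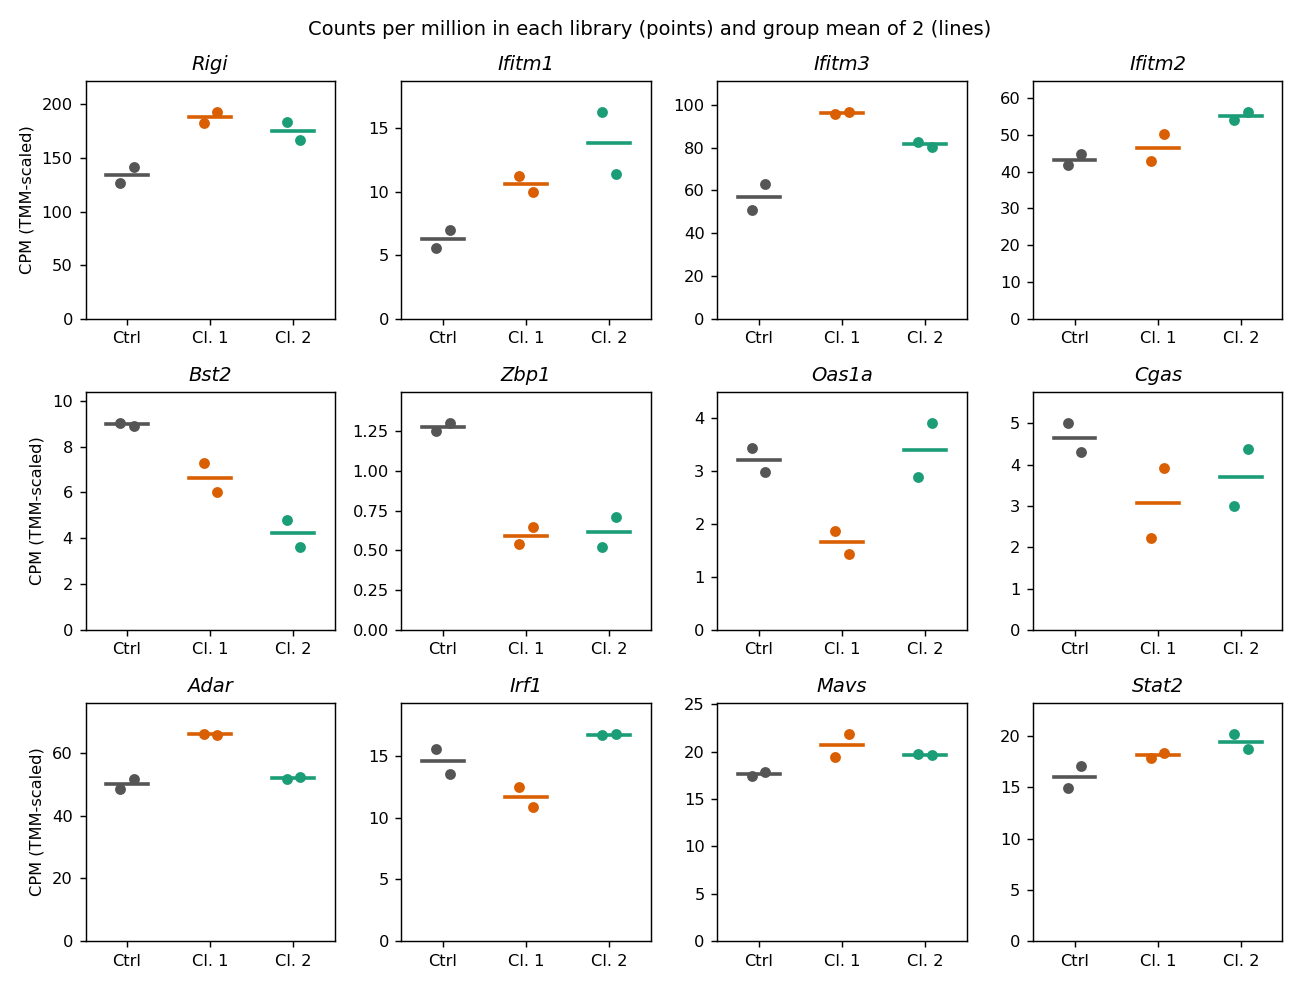
CPM of 12 of the genes in each library (points) with the mean of the 2 libraries of a clone (lines), each panel on its own linear axis from 0. Rigi, Ifitm1 and Ifitm3 are above the control in all DKO libraries, and Bst2 and Zbp1 are below it.

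Among the other effectors, Bst2 and Zbp1 were lower in every DKO library without passing the test. Bst2 codes for tetherin, which holds budding virus at the cell surface (Entrez 69550, chr8:71534255-71537472). It lay at 9.02 and 8.92 CPM in the control, 7.29 and 6.0 CPM in clone 1, and 4.78 and 3.64 CPM in clone 2. The 3 clones did not overlap, with clone 2 the lowest. The means were 8.97 ± 0.0732 CPM (SD, n = 2) and 5.42 ± 1.57 CPM (SD, n = 4), and the log2 change of -0.72 (SE 0.226) had an adjusted p of 0.0786 with edgeR, 0.0250 with DESeq2, 0.0490 with limma-voom, 0.0347 without the filter on low counts and 0.0222 without clone 1 replicate 1.

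Zbp1, a sensor of Z-form nucleic acids that can start cell death (Entrez 58203, chr2:173206612-173218959), lay at 1.25 and 1.30 CPM in the control, 0.538 and 0.647 CPM in clone 1, and 0.522 and 0.712 CPM in clone 2. Its means were 1.28 ± 0.0348 CPM (SD, n = 2) and 0.605 ± 0.0905 CPM (SD, n = 4). Both clones sat well under the control, with a log2 change of -1.07 (SE 0.306) and an adjusted p of 0.0578 (edgeR), or 0.0387 with the stricter filter on low counts. The sum of the fibroblast markers was also lower in the DKO libraries, and Acta2 (6.02 to 1.60 CPM, adjusted p = 0.00629, edgeR), which is part of that sum, fell. Of the 5 tested fibroblast markers, Acta2 was the 1 called, 3 had a negative log2 change and 2 a positive one. The part of these markers in the lower values of Bst2 and Zbp1 was not tested.

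The remaining tested effectors did not pass in DKO against control. Trim25 lay at 143.2 and 155.3 CPM in the control, 140.5 and 131.5 CPM in clone 1, and 135.5 and 130.1 CPM in clone 2. The DKO libraries were all below the control, by a log2 change of -0.15 (SE 0.0665, adjusted p = 0.203, edgeR). Eif2ak2, the kinase PKR that stops translation on binding double-stranded RNA, held 26.1 to 32.5 CPM in the 6 libraries with a log2 change of 0.01 (SE 0.107). Adar, which edits double-stranded RNA and hides it from MDA5, had a log2 change of 0.24 (adjusted p = 0.258, edgeR), with its values given under the clones. Oas1a and Ifit2 had log2 changes of -0.35 and -0.56 at adjusted p of 0.587 and 0.636, and Ifit2 was low throughout, at 0.108 to 0.466 CPM.

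None of the 5 transcription factors passed the test in DKO against control with edgeR, DESeq2 or limma-voom, and at an unadjusted p under 0.05 (edgeR) 0 were higher and 1 was lower. Stat2, a subunit of the interferon-activated complex, lay at 14.9 and 17.1 CPM in the control, 17.9 and 18.4 CPM in clone 1, and 20.2 and 18.7 CPM in clone 2. Its DKO libraries were all above the control, with a log2 change of 0.23 (SE 0.107, adjusted p = 0.221, edgeR). Irf9, the DNA-binding subunit of the same complex, lay on the other side, at 22.6 and 20.2 CPM in the control, 18.6 and 18.8 CPM in clone 1, and 17.98 and 16.7 CPM in clone 2 (log2 change -0.25, SE 0.101, adjusted p = 0.173).

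Irf7, the factor that amplifies interferon production and is itself interferon-induced, lay at 0.757 and 0.434 CPM in the control, 0.718 and 0.503 CPM in clone 1, and 0.361 and 0.600 CPM in clone 2. The groups overlapped, and its log2 change was -0.12 with an SE of 0.422. Irf3, which the sensors activate by phosphorylation, held 19.3 to 21.4 CPM in the 6 libraries (log2 change -0.06, SE 0.0915). Irf1, a factor induced by interferon gamma, had a log2 change of -0.04 (SE 0.179) over the DKO libraries together.

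The 3 tested antigen presentation genes of the list did not pass with any of the 3 tools either, and 0 had an unadjusted p under 0.05 in edgeR. B2m, the light chain of class I molecules, lay at 14.2 and 14.0 CPM in the control, 21.5 and 12.8 CPM in clone 1, and 17.5 and 15.2 CPM in clone 2. The libraries of clone 1 lay on both sides of the control, and the log2 change was 0.25 (SE 0.178, adjusted p = 0.447, edgeR). Without clone 1 replicate 2, B2m was higher in clone 1 against control (adjusted p = 0.0107). Tap1, the peptide transporter, held 3.15 to 5.39 CPM, and Psmb9, an immunoproteasome subunit, 0.161 to 0.408 CPM.

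Each clone was then set against the same control libraries in a fit with 3 groups. In clone 1, 4 of the 23 genes rose and 1 fell, where 8.79% and 6.47% of all tested genes did (15.3% together). In clone 2, 4 rose and 1 fell, where the shares of all genes were 7.89% and 7.08% (15% together). Rigi, Ifitm1 and Ifitm3 were higher in both: Rigi by 0.49 and 0.39 on the log2 scale, Ifitm1 by 0.76 and 1.14, and Ifitm3 by 0.76 and 0.52. The edgeR adjusted p-values in clone 1 were 7.6e-04 for Rigi, 0.0121 for Ifitm1 and 1.3e-04 for Ifitm3, and in clone 2 they were 0.00381, 7.7e-04 and 0.00163. The Ifitm1 call of clone 1 ended without control replicate 1 (adjusted p = 0.113) or clone 1 replicate 1 (0.0735), and the Rigi call of clone 2 ended without clone 2 replicate 1 (0.0644).

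The further calls differed by clone. In clone 1, Adar (Entrez 56417, chr3:89714469-89753455) rose to 66.0 and 65.9 CPM from 48.5 and 51.8 CPM in the control, a log2 change of 0.40 (adjusted p = 0.00347, edgeR), while clone 2 lay at 51.7 and 52.5 CPM, next to the control. The tested genes of chromosome 3 had a median log2 change of 0.28 in clone 1 and 0.08 in clone 2, and after each chromosome's median was subtracted the change of Adar in clone 1 was 0.11 (adjusted p = 0.393). Oas1a, which makes the activator of RNase L (Entrez 246730, chr5:120896256-120907544), lay at 3.44 and 2.97 CPM in the control, 1.87 and 1.44 CPM in clone 1, and 2.89 and 3.90 CPM in clone 2. Clone 1 was the low group, with a log2 change of -0.96 (adjusted p = 0.0204, edgeR) that did not pass without control replicate 1 (0.1197) or clone 1 replicate 2 (0.1225). Of the stretches of 50 bases in Oas1a transcripts, 57.6% also occur in other genes, chiefly Oas1g and Oas1b, so its count is uncertain.

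In clone 2, Bst2 fell by 1.10 on the log2 scale (adjusted p = 8.7e-04, edgeR), and the call held when any 1 of the 6 libraries was left out (adjusted p 5.5e-04 to 0.0156). Ifitm2 rose by 0.35 (adjusted p = 0.0204, edgeR), which did not pass without control replicate 1 (0.110), clone 2 replicate 1 (0.0731) or clone 2 replicate 2 (0.134). Rigi, Ifitm1, Ifitm3, Adar, Oas1a, Ifitm2, Bst2 and, between the clones, Irf1 are the 8 genes called in at least 1 contrast, and the other 15 tested genes were called in none.

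The direct test of clone 2 against clone 1 called 4 of the 23 genes, 2 higher and 2 lower, where 2.53% and 3.77% of all tested genes were called (6.3% together). Oas1a was higher in clone 2 by 1.04 on the log2 scale (adjusted p = 0.0290, edgeR), and Irf1 (Entrez 16362, chr11:53770014-53778374) by 0.52 (adjusted p = 0.0293). Irf1 lay at 15.6 and 13.5 CPM in the control, 12.5 and 10.8 CPM in clone 1, and 16.7 and 16.8 CPM in clone 2, so the control lay between the clones. Bst2 was lower in clone 2 by a log2 difference of -0.66 (adjusted p = 0.0464), and Adar by -0.34 (adjusted p = 0.0210). None of these 4 calls held in every fit with a library left out: that of Bst2 ended when any 1 of the 6 libraries was left out (adjusted p 0.0507 to 0.335), those of Oas1a and Adar when any 1 of the 4 DKO libraries was left out (0.0523 to 0.247 and 0.0828 to 0.138), and that of Irf1 without clone 1 replicate 2, clone 2 replicate 1 or clone 2 replicate 2 (0.145, 0.139 and 0.154).

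The rest of the pathway was read from 180 further genes in 5 lists, of which 121 were tested. In DKO against control 5 rose and 4 fell, 4.13% and 3.31% of the 121, beside the 5.06% and 3.62% of all tested genes, and the median log2 change was -0.0033. The interferons themselves were silent or nearly so: of 24 ligand and receptor genes, 15 had no read in any library, Ifnb1 (interferon beta) among them, and Ifnk, Ifnz and Ifna13 had 19, 5 and 2 reads in all. The receptors were present. Ifnar1 and Ifnar2, the chains of the type I receptor, lay at 43.6 and 9.30 CPM in the control and at 44.5 and 11.7 CPM in the DKO libraries (adjusted p = 0.882 and 0.167, edgeR). In DKO against control none of the 6 tested genes of this list passed in edgeR, with 2 higher at an unadjusted p under 0.05, or in limma-voom. DESeq2 called 1 higher in that contrast, Ifngr2, a chain of the interferon gamma receptor. In clone 1 against control edgeR, DESeq2 and limma-voom each called Ifngr2 higher (log2 change 0.76, adjusted p = 0.0172, edgeR). Ifnar1, Ifnar2 and the ligands are named for their place in the pathway.

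Among 79 other interferon-stimulated genes, 48 were tested, 3 rose and 2 fell (6.25% and 4.17%, near the 5.06% and 3.62% of all tested genes), with a median log2 change of 0.07. The change farthest from 0 was that of Ddx60, a helicase described as a cofactor of RIG-I (Entrez 234311, chr8:61928073-62037704). It lay at 2.79 and 3.07 CPM in the control, 0.646 and 0.359 CPM in clone 1, and 0.401 and 0.562 CPM in clone 2. All DKO libraries were far below the control, with means of 2.93 ± 0.192 CPM (SD, n = 2) and 0.492 ± 0.135 CPM (SD, n = 4), which is a log2 change of -2.56 (SE 0.285, adjusted p = 0.00102, edgeR). The log2 change was -2.53 in clone 1 and -2.59 in clone 2. The call held in every alternative run except the counts summed per clone (log2 change -2.56), a fit that cannot decide about a single gene.

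Tor3a, an interferon-induced ATPase of the endoplasmic reticulum, rose from 10.9 to 18.7 CPM (log2 change 0.79, adjusted p = 0.00367, edgeR), and without control replicate 1 or 2 its adjusted p was 0.0525 or 0.0674. Slfn5, a member of the Schlafen family, rose from 2.14 to 5.13 CPM (1.26, adjusted p = 0.0241), with 0.130 or 0.228 without control replicate 1 or 2. Nt5c3, a pyrimidine nucleotidase, rose from 16.0 to 24.5 CPM (0.62, adjusted p = 0.0153), with 0.182 without control replicate 2. Tent5a, a poly(A) polymerase, fell from 1.87 to 0.785 CPM (-1.25, adjusted p = 0.0404), and the call ended when any 1 library other than clone 2 replicate 1 was left out (0.0694 to 0.266) or when each chromosome's median was subtracted (0.0573).

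In the list of signalling genes and other sensors, 31 of 37 were tested, 2 rose and 1 fell (6.45% and 3.23%, again near the shares of all tested genes), with a median of -0.02. Zc3hav1 (ZAP, which binds CpG-rich viral RNA) rose from 112 to 159.6 CPM (0.52, adjusted p = 0.00215, edgeR) and Irf5, an interferon regulatory factor, from 23.2 to 33.0 CPM (0.51, adjusted p = 0.00576). Both lie on chromosome 6, as does Nt5c3, and the tested genes of that chromosome had a median log2 change of 0.48. After each chromosome's median was subtracted, the log2 changes of Zc3hav1, Irf5 and Nt5c3 were 0.05, 0.04 and 0.14 (adjusted p = 0.788, 0.846 and 0.547). Without control replicate 1 or 2 the adjusted p of Irf5 was 0.0760 or 0.0734. Jak2, a receptor-associated kinase, fell from 27.2 to 18.3 CPM (-0.57, adjusted p = 0.0141, edgeR). Its call ended without control replicate 1 or 2 (log2 change -0.46 or -0.67).

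Of the 20 tested genes that restrain sensing, such as the nuclease Trex1 and the signalling inhibitor Socs1, none passed in edgeR, with 2 higher and 1 lower at an unadjusted p under 0.05 and a median of 0.04, and DESeq2 and limma-voom each called 1 higher, Tollip. Of 16 tested antigen presentation genes beyond the list, 1 fell and none rose in edgeR, with a median of -0.03. At an unadjusted p under 0.05, 0 were higher and 3 lower, and DESeq2 and limma-voom each called 2 lower. The gene that fell was H2-K1, a class I heavy chain, from 10.4 to 6.10 CPM (-0.77, adjusted p = 0.0310, edgeR), and its adjusted p was 0.163 or 0.236 without control replicate 1 or 2 and 0.0569 without clone 1 replicate 2. Class I genes resemble one another in sequence, so the split of reads between them is uncertain.

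**Figure D4:**
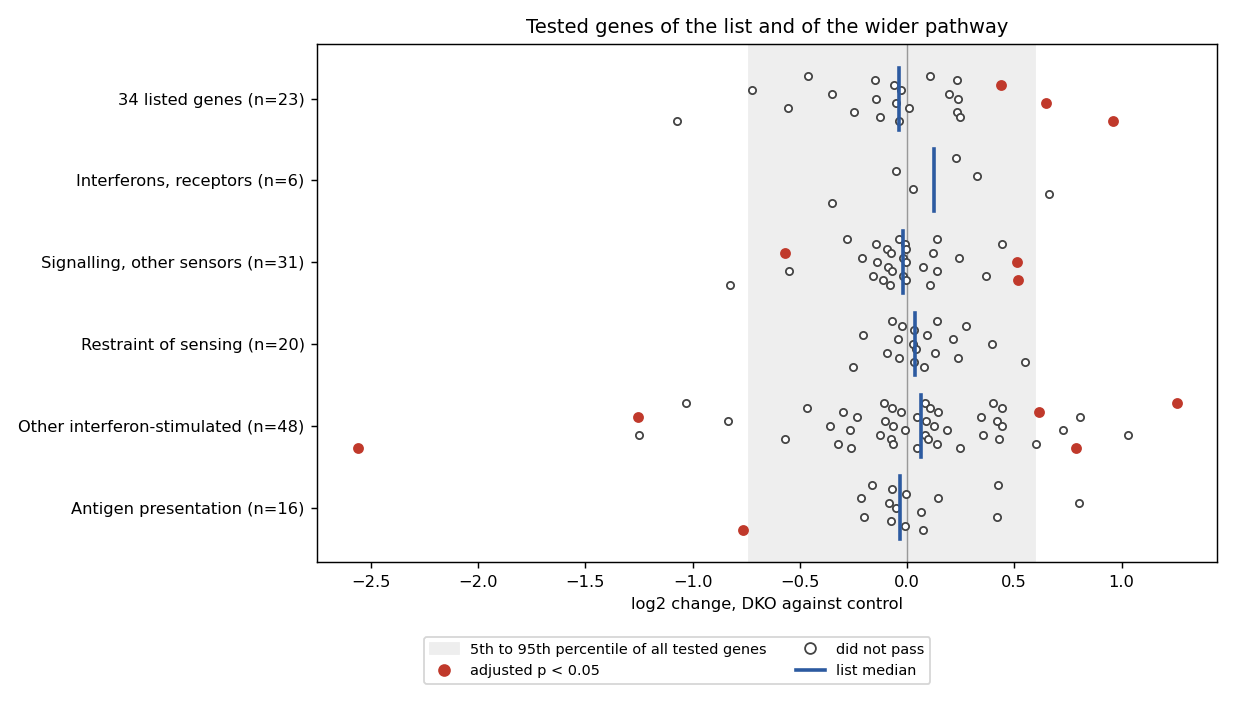
Log2 change in DKO against control of the tested genes of the 34 and of the 5 further pathway lists, with filled points for adjusted p under 0.05, bars for list medians and a band for the 5th to 95th percentile of all tested genes (-0.74 to 0.60). The medians lie between -0.04 and 0.13, and the lowest point is Ddx60 at -2.56.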

How the data were processed

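RNA was measured in 6 libraries of mouse ES cells made with the stranded ScriptSeq v2 kit, per the labels' protocols. Alignment used STAR 2.5.0a with mm10 (GRCm38), per the submitters' processing notes, and the deposited values are raw counts of reads for each Entrez ID, beside the gene's width in bases. For the counting tool, annotation, counted strand and treatment of multiply matching reads the answer is not given in the sources used here, so reads of overlapping or antisense genes cannot be told apart. Of 24467 IDs, 24437 matched a gene table of the same build, and the 30 others held 0.389 to 1.62% of a library's reads.

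CPM were computed with edgeR 4.0.16 in R 4.3.3 and TMM scaling (factors 0.992 to 1.012), and RPKM by dividing by the deposited width. The filter filterByExpr over the 3 groups left 14771 genes. The two-sided quasi-likelihood F test used genotype alone (4 residual degrees of freedom) or the 3 groups (3 degrees), with Benjamini-Hochberg adjustment and a threshold of 0.05; standard errors come from the F statistic. The fits were also run on simulated data. These gave both DKO clones the same changes and held no shift of a chromosome, so they do not cover such differences. The 3 contrasts that use the control share its libraries.

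Values in every library were printed for genes called in any contrast, the 4 highest by RPKM, the sensors Rigi, Ifih1, Cgas and Tlr3, their adaptors, and Irf7, Irf9 and Stat2; further genes were added for their role or after their values were seen. Of each pathway list, up to 5 called genes were named. The genes, lists and tests were chosen with earlier results of these data known. Alternatives were RLE and library size scaling, no filter, a stricter filter (1 CPM), DESeq2 1.42.0, limma-voom (limma 3.58.1), a replicate block, each chromosome centred on its median, counts summed per clone, and leaving out each library. Results for 2 genes are not reported here.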

Additional observations from a re-analysis of the deposited data

Results flagged for a closer look

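The 2 DKO clones differed from each other, by the edgeR test of clone 2 against clone 1, in 4 of the 23 tested genes. The log2 difference was 1.04 for Oas1a, -0.66 for Bst2, -0.34 for Adar and 0.52 for Irf1, each of which lost the call when single DKO libraries were left out. After each chromosome's median was subtracted, the difference was -0.15 for Adar (adjusted p = 0.334, edgeR), -0.66 for Bst2 (0.0560) and 0.47 for Irf1 (0.0527). Oas1a kept its call in that fit (0.0320). With limma-voom the calls of Oas1a (adjusted p = 0.0507) and Bst2 (0.0697) ended, and with library size scaling that of Bst2 (0.0525, edgeR) ended.

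Among the 4 DKO libraries, Mavs in clone 1 replicate 2 (21.8 CPM) stood apart from the other three, at a gap of 0.872 of the range, above Dixon's critical value for 4 samples. Chance gives such a gap in about 1 in 20 groups, and 23 genes were examined.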

How the results depend on the processing

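With each library left out in turn, the number of the 34 genes called higher in DKO against control ran from 0 (without control replicate 1) to 3 and the number lower from 0 to 1. The other counts were 158 to 715 genes higher and 88 to 482 lower over all genes, and 1 to 6 higher and 1 to 5 lower in the wider pathway. In clone 1 they were 797 to 1198 higher and 495 to 853 lower over all genes, with 3 to 5 of the 34 higher and 0 to 1 lower. In clone 2 they were 656 to 1197 and 467 to 1105, with 2 to 4 of the 34 higher and 1 lower throughout. For clone 2 against clone 1 they were 115 to 377 and 155 to 557, with 0 to 2 of the 34 higher and 0 to 1 lower. With the libraries of a clone summed (1 residual degree of freedom), 0 genes were higher and 2 lower over all genes, 0 of the 34 were called and 0 of the wider pathway. With each chromosome centred, 332 genes were higher in DKO against control (2 of the wider pathway), 730 in clone 1 and 766 in clone 2. In DKO against control 1 of the 34 fell with no filter, the stricter filter, DESeq2 and limma-voom; in clone 1, 2 fell with no filter or the stricter filter, where Cgas without a filter had an adjusted p of 0.0304. Between the clones, 644 genes were higher with no filter, 1 of the 34 was higher with limma-voom or centring, and 1 was lower with library size scaling or limma-voom and 0 with centring. The deviations between replicates 1 and 2 correlated at 0.158 (control with clone 1), -0.321 (control with clone 2) and 0.0905 (clone 1 with clone 2). Equal replicate numbers thus gave no pairing common to all clones. Other sources of shared variation, also behind the negative value, were not tested. With a replicate block 555 genes were higher and 373 lower in DKO against control, 3 and 0 of the 34, and 5 and 2 of the wider pathway. In that fit H2-K1 (adjusted p = 0.0562, edgeR) and Tent5a (0.0718) no longer passed. Of 731 values of the 34 genes under alternatives with all libraries, 715 stayed on their side of the threshold. A call was lost by 10 and gained by 6. With a library left out, the numbers were 520, 29 and 3 of 552. A turn of direction in a value that was never called was counted as unchanged. None turned its direction while called. The causes of these shifts were not tested. A count of 0 in a library allows up to 0.0873 to 0.120 CPM if reads were counted independently.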

Other observations

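Some of the other interferon-stimulated genes differed between the DKO clones, a count chosen after its values were seen. Of 48 tested genes, 39 did not pass, 8 were higher in clone 2 than in clone 1 and 1 was lower (edgeR), 16.7% and 2.08%, where 2.53% and 3.77% of all tested genes were, and the median log2 difference was 0.26. Samd9l, an antiviral restriction factor, lay at 1.89 and 1.92 CPM in the control, 0.646 and 0.934 CPM in clone 1, and 3.21 and 2.74 CPM in clone 2, so the control lay between the clones (log2 difference 1.91, SE 0.298, adjusted p = 0.00277). Ifi35 lay at 5.12 and 4.43 CPM in the control, 3.70 and 3.09 CPM in clone 1, and 6.34 and 7.39 CPM in clone 2 (1.02, adjusted p = 0.00649). Oas1g lay at 1.86 and 1.08, 0.538 and 0.826, and 2.21 and 2.74 CPM in the same order (1.85, adjusted p = 0.0110), and its transcripts share stretches with Oas1a.

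Apobec3, a cytidine deaminase that restricts retroviruses, lay at 87.0 CPM in clone 1 and 116.7 CPM in clone 2 (0.42, adjusted p = 0.00433, edgeR), and Slfn9 at 37.1 and 53.0 CPM (0.51, adjusted p = 0.00433). Irgm1, Ly6e and Slfn5 were higher in clone 2 by 1.00, 0.60 and 0.75 on the log2 scale, and Ube2l6, the conjugating enzyme for Isg15, was lower by a log2 difference of -0.51. Of these 9 genes, Samd9l kept its call when any 1 library was left out (adjusted p 0.00467 to 0.0298). Without clone 1 replicate 1, clone 1 replicate 2, clone 2 replicate 1 or clone 2 replicate 2 the number higher was 4, 5, 4 or 4. The comparison rests on 2 libraries a clone, and the genes Isg15, Ifit1 and Ifit3 had no read in either clone.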
